A study of Homo sapiens with 6 samples.

Results

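Between positions 20000001 and 30000000 of chromosome 5 (GRCh38) lies a stretch of 10 Mb with 6 protein-coding genes, 4 of which encode type II cadherins. Peaks of open chromatin overlapping this stretch were taken from 6 peak lists and merged wherever they shared at least 1 bp, which gave 3141 regions out of 507440 in the whole genome. The stretch had been picked from the same lists because it was crowded with low peaks, so its crowding and its low peaks are described here and not tested. The lists came from the assay for transposase-accessible chromatin (ATAC-seq), in which a transposase cuts and tags open DNA. They were made from NCI-H1703, an established human lung squamous cell carcinoma line, with 3 libraries from cells whose DLGAP1-AS2, a long non-coding RNA (lncRNA), was silenced and 3 libraries of control cells, titled NC. The titles of the silenced libraries carry the letters ASO. No dose, time or separate culture is given, so the p-values measure the spread between these libraries, which may be technical.

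Type II cadherins are calcium-dependent adhesion proteins of the cell surface, best known for sorting neurons and other cells during development. Their genes are long, with wide introns, and several of them stand in gene deserts. CDH18, CDH12, CDH10 and CDH9 lie in this order along the stretch. PRDM9, between CDH12 and CDH10, encodes the germ-cell histone methyltransferase that places meiotic recombination. LOC124901178 is a predicted coding gene. PURPL, beyond CDH9, is an lncRNA that is induced by the tumour suppressor p53 and limits p53 levels.

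The starts of these genes differed in how many lists held a peak, and their sequences are shown for that reason. The 250 bases before the transcript start are given 5′ to 3′ on the transcript's strand (RefSeq, GRCh38.p14), with each CpG dinucleotide in capitals. They lie at chr5:22853345-22853594 on the minus strand for CDH12, chr5:20575714-20575963 on the minus strand for CDH18, chr5:27038587-27038836 on the minus strand for CDH9, chr5:24644979-24645228 on the minus strand for CDH10 and chr5:23507359-23507608 on the plus strand for PRDM9.
CDH12: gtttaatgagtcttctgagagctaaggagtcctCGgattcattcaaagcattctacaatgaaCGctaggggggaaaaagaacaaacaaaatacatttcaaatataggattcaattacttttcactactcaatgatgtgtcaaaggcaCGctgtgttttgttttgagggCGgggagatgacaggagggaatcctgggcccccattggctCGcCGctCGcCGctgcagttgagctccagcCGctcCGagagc
CDH18: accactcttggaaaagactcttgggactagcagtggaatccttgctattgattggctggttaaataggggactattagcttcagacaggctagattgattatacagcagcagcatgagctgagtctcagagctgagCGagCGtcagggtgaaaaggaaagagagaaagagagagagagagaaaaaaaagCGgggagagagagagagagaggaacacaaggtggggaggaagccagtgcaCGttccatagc
CDH9: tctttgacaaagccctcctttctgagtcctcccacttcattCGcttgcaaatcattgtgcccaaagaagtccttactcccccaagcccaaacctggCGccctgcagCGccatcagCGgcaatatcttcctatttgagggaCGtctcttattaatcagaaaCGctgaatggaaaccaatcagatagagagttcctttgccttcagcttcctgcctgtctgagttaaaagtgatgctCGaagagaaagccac
CDH10: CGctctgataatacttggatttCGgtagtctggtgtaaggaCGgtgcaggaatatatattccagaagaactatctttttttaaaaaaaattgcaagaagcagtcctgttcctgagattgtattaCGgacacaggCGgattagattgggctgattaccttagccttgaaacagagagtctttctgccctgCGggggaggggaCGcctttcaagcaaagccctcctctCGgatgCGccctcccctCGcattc
PRDM9: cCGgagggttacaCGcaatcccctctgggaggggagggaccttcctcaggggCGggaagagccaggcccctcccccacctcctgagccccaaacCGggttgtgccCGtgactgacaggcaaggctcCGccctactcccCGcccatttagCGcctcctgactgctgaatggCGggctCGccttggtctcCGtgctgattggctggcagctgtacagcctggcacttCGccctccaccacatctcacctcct
CDH12 carried 10 CpGs in these bases and a peak in 4 lists, CDH18 4 CpGs and a peak in 2 lists, and CDH9 7 CpGs and a peak in 1 list. Further RefSeq promoters of CDH12, at chr5:22212770-22213019 (9 CpGs) and chr5:21889848-21890097 (1 CpG), had no peak in any list. CDH10 carried 10 CpGs and no peak in any list. PRDM9 carried 12 CpGs and a peak in 2 lists.

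The PURPL start, at chr5:27472042-27472291 on the plus strand, was the only one of the 39 RefSeq promoters of the stretch (36 genes) with a peak in all 6 lists. Its capitals mark matches to the p53 half-site, of which there were 2, set back to back without a spacer.
PURPL: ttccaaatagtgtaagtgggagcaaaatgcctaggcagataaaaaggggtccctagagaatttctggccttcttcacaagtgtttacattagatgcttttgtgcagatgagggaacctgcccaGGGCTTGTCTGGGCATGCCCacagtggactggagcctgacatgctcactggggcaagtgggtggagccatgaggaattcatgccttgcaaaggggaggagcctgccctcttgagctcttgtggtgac
This sequence held no CpG. A p53 half-site was found in 3 of the 39 promoters (7.69%) and in 5.57% of all 35116 promoters. A pair without a spacer was found in 1 of the 39 and in 6 of all promoters. The p53 motif was searched after the PURPL peak had been seen, and a match describes the letters only.

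Promoters of the stretch were poor in GC and CpG compared with those of the genome. The median GC content was 37.6% against 58% for all promoters, and the median number of CpGs was 2 against 11. A peak in any list touched 9 of the 39 (54.7% of all promoters had one), and the share with a peak in all 6 lists was 2.56%, against 36.3% of all promoters. Other motifs were searched one by one on both strands of the same 250 bases, so that matches to different motifs could overlap. The TATA motif TATAAA was present in 15 of the 39 promoters (38.5%) and in 10.7% of all promoters. This motif holds only A and T, and the part of the lower GC content in its share was not tested. The AP-1 motif TGANTCA was present in 2 (5.13%, against 6.57%), and the TEAD motif GGAATG in 5 (12.8%, against 11.9%). TEAD factors bind DNA for the co-activator YAP, which the series title names.

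The depth in reads is unknown, so the local background stands in for it. A background can be computed as (height + 1) / fold enrichment − 1, where the height is the authors' pileup at a peak, and the smallest value in a list was 0.369, 0.402 and 0.237 in silenced libraries 1, 2 and 3 and 0.380, 0.464 and 0.372 in control libraries 1, 2 and 3. By this measure silenced 3 was the shallowest library and control 2 the deepest. The control 2 list was also the shortest (91346 peaks, the others 121406 to 170882) and had no peak lower than 3, where the others reached down to 2. Every list had a peak at most 1 kb from an end of the gene for 1 of 8 squamous markers (SOX2), and no list had one for KRT6A. The same held in all 6 lists for 3 of 5 adenocarcinoma or alveolar markers, 2 of 4 neuroendocrine, 2 of 4 epithelial, 3 of 3 mesenchymal, 0 of 3 immune and 0 of 2 endothelial markers. The squamous label therefore rests on the submitters' name for the line and not on these peaks.

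The stretch held 887, 903 and 694 peaks in silenced libraries 1, 2 and 3, and 858, 396 and 883 in control libraries 1, 2 and 3. Control 2 was the lowest by far, and silenced 3 the next lowest. Divided by the length of each list, these were 0.547%, 0.538% and 0.572% of all peaks in the silenced and 0.502%, 0.434% and 0.533% in the control libraries. All silenced shares lay above all control shares. The mean share was 0.552% ± 0.0176 (SD, n = 3) against 0.490% ± 0.0509 (SD, n = 3), with p = 0.1 in a two-sided exact permutation test, the smallest value that 3 libraries against 3 can give, and an adjusted p of 0.35 over 7 such tests. Among peaks with a height of at least 4 the difference turned to −0.0293 percentage points, and at an FDR of at most 1e-05 to −0.0110. It was 0.0626 percentage points in the lists as deposited, 0.0346 without control 2 and 0.0109 in lists of equal length (exact permutation p = 0.9). The share is therefore not reported as a difference between the groups.

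**Figure D1:**
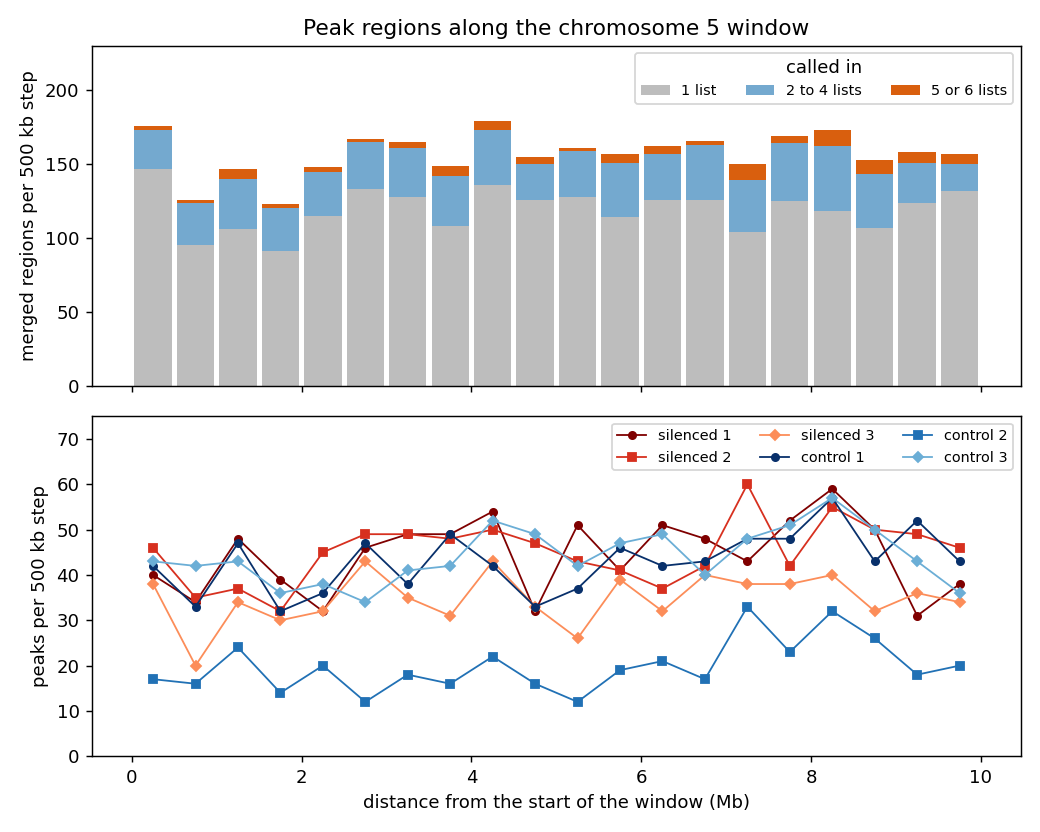
Regions and peaks along the stretch. Top: merged regions in each 500 kb step (y axis, count) against the distance from the start of the stretch in Mb, stacked by the number of lists that called them. Bottom: peaks per step in each library. Steps hold 123 to 179 regions, and control 2 runs below the other libraries.

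Most of the 3141 regions were seen in a single library. There were 2389 such regions (76.1%, against 74.1% of regions in the genome), 441 in 2 lists, 139 in 3, 63 in 4, 24 in 5 and 85 in all 6 (2.71%, against 7.35% in the genome). Regions called once had a median height of 3 and a median length of 200 bp, the shortest that the lists contain. Regions called in all 6 lists had a median height of 11.5 and a median length of 509 bp, and in the genome such regions had a median height of 16.5. Height and recurrence thus went together, as a description of regions chosen partly for their height.

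The peaks were low in every library. The median height was 3 in 5 libraries, where the whole lists had medians of 4 (3 in silenced 3), and 5 in control 2, where the whole list had 8. Peaks with a height of at least 4 made up 33.6%, 35.7% and 27.4% of the stretch's peaks in silenced libraries 1, 2 and 3. They made up 35.7%, 95.5% and 35.7% in control libraries 1, 2 and 3. In the whole lists these shares were 50.5%, 51.9% and 47.9% in the silenced and 50.2%, 97.5% and 51.7% in the control libraries. Each library was lower in the stretch than in its list. Pooled over the lists, 39.1% of the stretch's peaks had a height of at least 4, rank 34 from the lowest among 290 full stretches of 10 Mb. The 7 other full stretches with at most 10 protein-coding genes had 21.1% to 64.9%, with a median of 51.3%, so low peaks were not particular to this stretch. Heights of at least 10 were found in 4.90% to 7.46% of the stretch's peaks in 5 libraries and in 19.7% in control 2.

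**Figure D2:**
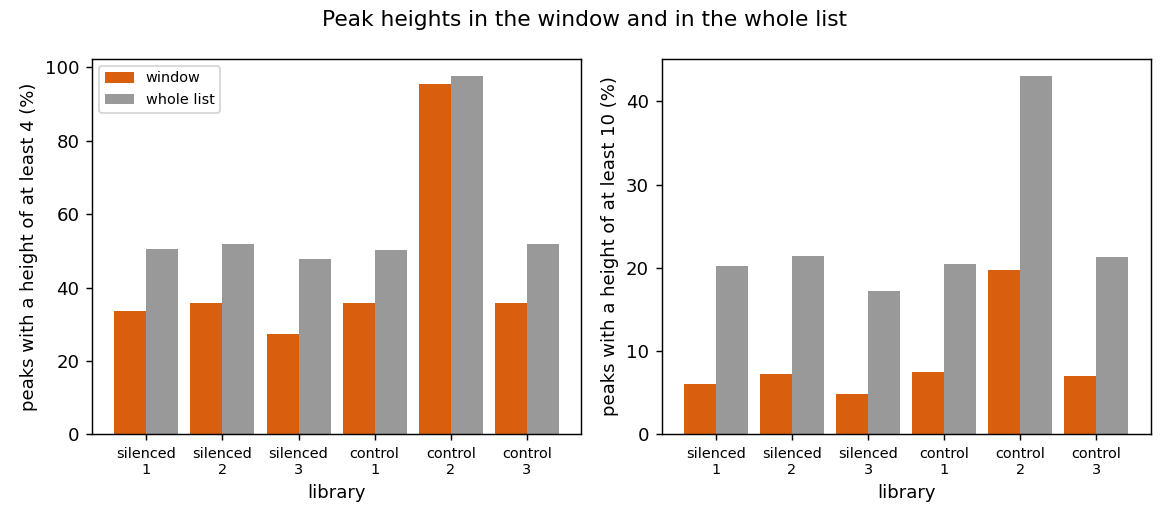
Share of peaks with a height of at least 4 (left) and at least 10 (right), in percent, for each library, in the stretch and in the whole list. The bars of the stretch are below those of the list in all 6 libraries, and control 2 stands apart in both.

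Peaks of at least 4 in height made up 32.2% ± 4.31 (SD, n = 3) of the stretch's peaks on average in the silenced libraries. In the control libraries they made up 55.6% ± 34.5 (SD, n = 3), and the exact permutation p of 0.1 was again the smallest possible (0.35 after adjustment). Without control 2 the difference shrank from −23.4 to −3.46 percentage points. The number of peaks was 828 ± 116 (SD, n = 3) against 712 ± 274 (SD, n = 3), with an exact permutation p = 0.5. Covered length was 204 ± 32.6 kb (SD, n = 3) against 183 ± 67.1 kb (SD, n = 3), with an exact permutation p = 0.7. Peaks averaged 246 ± 7.03 bp (SD, n = 3) in length with DLGAP1-AS2 silenced and 259 ± 7.0 bp (SD, n = 3) without, with an exact permutation p = 0.2. The base-pair Jaccard index (shared length over joint length of a pair of lists) averaged 0.121 over the 6 pairs within a group and 0.124 over the 9 pairs between groups, with an exact permutation p = 0.3.

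Along the stretch the regions were spread evenly. The median gap between neighbours was 2.30 kb and the longest 31.9 kb. Each 500 kb step held 123 to 179 regions, with a median of 157.5. The richest were step 9 (179 regions), which reaches from chr5:24000001-24500000 into CDH10, step 1 (176), inside CDH18, and step 17 (173). The poorest were step 4 (123), at the end of CDH12, step 2 (126) and step 3 (147). Regions called in all 6 lists were less even, with 33 in the first 10 steps, 52 in the last 10 and 42 in steps 15 to 20 alone. Step 15 held 11 of them and the tallest peak, at a height of 123. Its mean local background was 3.29 times the library background, and that of step 17 was 2.65 times, the highest among the 20 steps.

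The density of each step was compared between the groups with limma over all 5715 steps of the genome. None of the 20 steps was called at a Benjamini-Hochberg adjusted p under 0.05, and none in the genome (0%). At an unadjusted p under 0.05 there were 0 of the 20 steps and 64 of all steps (1.12%). Step 6, which holds the start of CDH12, had the smallest p. It contained 0.284, 0.292 and 0.354 peaks per 1000 of the list in silenced libraries 1, 2 and 3, and 0.275, 0.131 and 0.205 in control libraries 1, 2 and 3. The silenced libraries all lay above the control libraries there, with a log2 difference of 0.63 ± 0.28 (SE; limma adjusted p = 0.996). Step 7, between CDH12 and PRDM9, showed a log2 difference of 0.39 (limma adjusted p = 0.996) and also no overlap. Step 14, which holds most of CDH9, showed 0.36 (limma adjusted p = 0.996), with overlapping groups. In the genome 3.41% of steps had all silenced libraries above all control libraries, and here 2 of 20 did. The opposite order was found in 1.94% of steps in the genome and in 0 of the 20. The difference was above 0 in 17 of 20 steps, against 58.0% of steps in the genome, with a median of 0.16 against 0.05. Among peaks of at least 4 in height it was above 0 in 7 of 20 steps, against 48.7% of steps in the genome. In lists of equal length it was above 0 in 9 of 20 (genome 55.4%), and without control 2 in 14 of 20 (genome 46.5%).

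**Figure D3:**
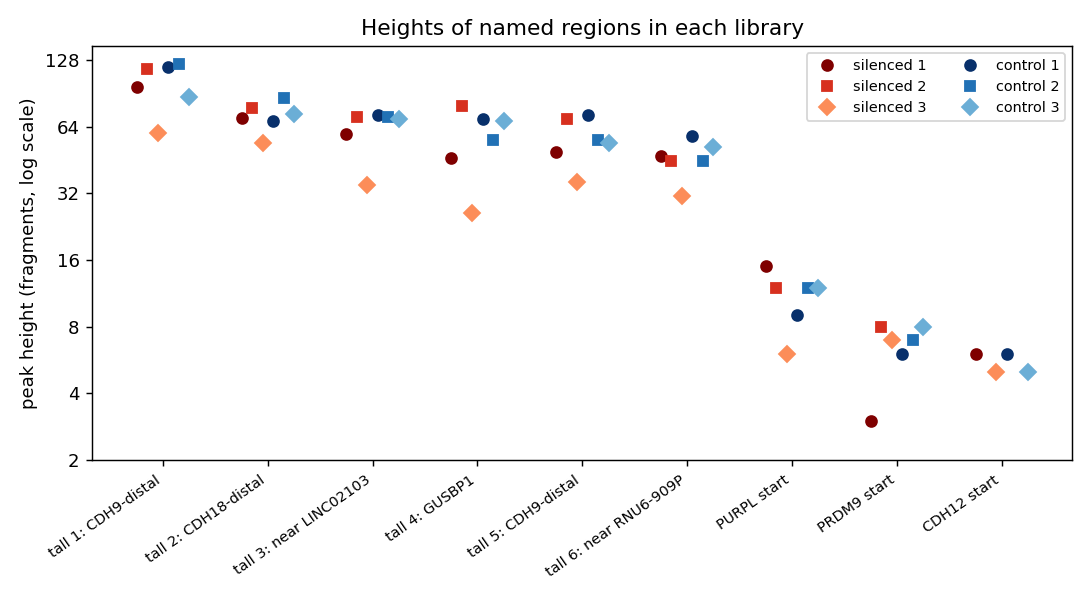
Peak height (log scale) in each library for the 6 tallest regions called in all 6 lists and for the regions at the starts of PURPL, PRDM9 and CDH12. For PRDM9 this is the region at the first base of the gene span, which lies outside the printed promoter sequence. A missing point is a library without a peak; groups overlap at every region, and silenced 3 is lowest at the 6 tall regions.

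The tallest regions stood away from coding genes. The region at chr5:27217450-27218340, 179 kb from CDH9 and in no gene span, had heights of 97, 117 and 60 in silenced libraries 1, 2 and 3 and 119, 123 and 87 in control libraries 1, 2 and 3. Silenced 3 was lowest and the groups overlapped. A neighbour at chr5:27220313-27220709 had heights of 49, 69 and 36 against 72, 56 and 54. The region at chr5:20972376-20972998, 397 kb from CDH18, had heights of 70, 78 and 54 against 68, 86 and 73. Here too silenced 3 was lowest. The region at chr5:28403730-28405300, 116 kb from LINC02103, had heights of 59, 71 and 35 against 72, 71 and 69. The region at chr5:28648088-28648529 had heights of 47, 45 and 31 against 58, 45 and 52. Of the 15 tallest regions called in all 6 lists, 11 lay in steps 15 to 18 and 1 lay in a gene span.

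That one lay at the start of GUSBP1, a transcribed pseudogene of the beta-glucuronidase gene. The region at chr5:21459159-21459850 had heights of 46, 79 and 26 in silenced libraries 1, 2 and 3 and 69, 56 and 68 in control libraries 1, 2 and 3. GUSBP1 has near-identical copies elsewhere, so where its reads arose is uncertain. GUSBP1 also held 3 further regions called in all 6 lists.

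No region called in all 6 lists passed the test of rank between the groups. Fold enrichment was ranked within each list over all 37284 such regions of the genome and compared with limma. Of the 85 in the stretch 0 were called (0% in the genome), and 5 (5.88%) had an unadjusted p under 0.05 against 4.68% in the genome. The rank was higher in silenced cells in 44 of the 85, near the share in the genome (50.9% of such regions). The tallest region, at chr5:27217450-27218340, had a score difference of 0.21 ± 0.21 (SE; limma adjusted p = 0.965). The library of lowest background, silenced 3, had the lowest or tied lowest height in 57 of the 85, and the library of highest background, control 2, the highest or tied highest in 34. These counts were not taken over the genome. The same order of libraries held there, with a median height over all 37284 shared regions of 10 in silenced 3, 19 in control 2 and 16 to 18 in the others. The part of the background in the heights was not tested.

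At the gene starts most peaks were low. The PURPL region, chr5:27472049-27472418, covers nearly all of the sequence printed for PURPL. Its heights were 15, 12 and 6 in silenced libraries 1, 2 and 3 and 9, 12 and 12 in control libraries 1, 2 and 3. The means were 11 ± 4.58 (SD, n = 3) and 11 ± 1.73 (SD, n = 3). Its rank did not pass the test between groups (limma adjusted p = 0.973). At the first base of the PRDM9 span, chr5:23506852-23507187 was called in all 6 lists with heights of 3, 8 and 7 against 6, 7 and 8. At the CDH12 start, chr5:22853288-22853676 was called in silenced 1 and 3 (6 and 5) and in control 1 and 3 (6 and 5), and in neither library numbered 2. At the CDH18 start, chr5:20575556-20575861 was called in silenced 1 and control 2, at a height of 4 in each. At the CDH9 start only control 1 had a peak (height 2), and next to the CDH10 start only control 1 (height 3). Both of these calls had an FDR of 0.541. In the weakest list with a call, the FDR was 0.529 at PRDM9 and 0.0650 at CDH18. It was 0.00264 at CDH12 and 0.000366 at PURPL. The calls at CDH9 and CDH10, and the weakest at PRDM9, are therefore uncertain.

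Inside the cadherin genes the regions were mostly called once, as were those of the whole stretch (76.1%) and of the genome (74.1%). CDH12 contained 332 regions, 258 of them in 1 list and 5 in all 6. The part of CDH18 within the stretch contained 204, with 169 in 1 list and 2 in all 6. CDH10 contained 54 and CDH9 47, each with 1 in all 6. Spans of protein-coding genes took 20.2% of the bases, 20.5% of the regions and 10.6% of those called in all 6 lists. Within 1 kb of any gene end lay 2.96% of the bases, 3.60% of the regions and 7.06% of those in all 6.

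Of the 84 noncoding genes, 15 held a region called in at least 5 lists. Besides GUSBP1 and PURPL these were LINC02899 (5 such regions), LOC107986377 and LOC105374703 (3 each), and LINC02241, LOC105374678, LOC102723561, LOC124900950, LOC105374685, LOC105374682, MSNP1, LOC105374701, LOC101929645 and LOC105374699 (1 each). LOC105374682, a short lncRNA inside CDH12, held a single region, called in all 6 lists with a median height of 12.

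**Figure D4:**
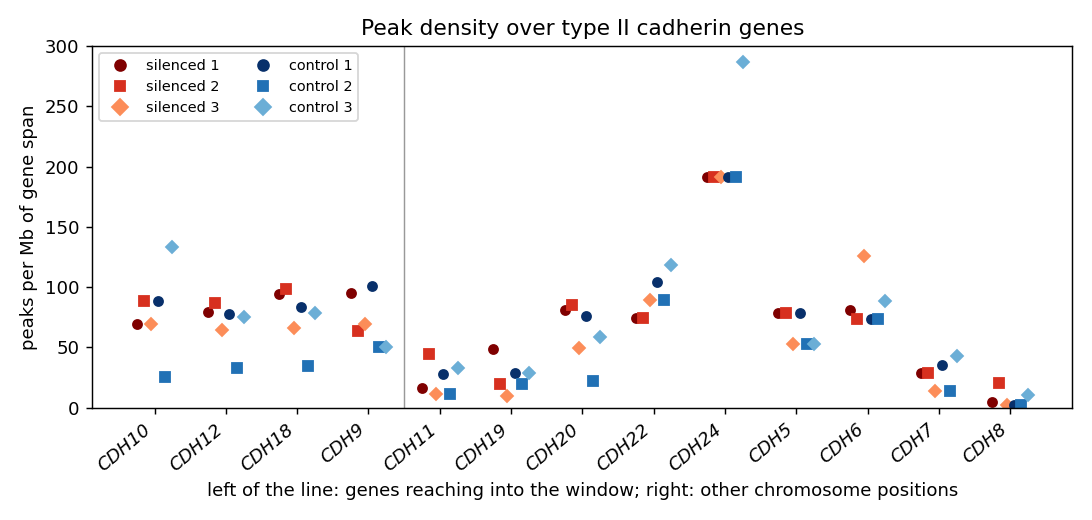
Peaks per Mb of gene span in each library for 13 type II cadherin genes (y axis, linear). The 4 genes of the stretch, left of the line, have medians of 66.5 to 81.0 per Mb, and those to the right range from 3.85 for CDH8 to 191 for CDH24.

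The 4 cadherins of the stretch were set beside the rest of the type II family. The median over the 6 libraries was 81.0 peaks per Mb of span for CDH18, 76.6 for CDH12, 79.2 for CDH10 and 66.5 for CDH9. The value of CDH18 covers its whole span of 1104 kb, of which 576 kb lies in the stretch. The libraries of each gene ranged from 25.3 to 133 for CDH10 and from 32.6 to 87.1 for CDH12, so the ranges of the 4 genes overlapped. Outside the stretch CDH8 had 3.85, CDH11 22.2, CDH19 24.3, CDH7 28.6, CDH5 65.6, CDH20 67.5, CDH6 77.5, CDH22 89.0 and CDH24 191. CDH6 lies nearby, at chr5:31193686-31329146 in the neighbouring stretch, and the others lie on other chromosomes. CDH24 spans 10.5 kb, so few peaks make up its value. At CDH6, CDH22 and CDH24 all 6 lists had a peak at most 1 kb from an end of the span. At CDH18, CDH12, CDH10 and CDH9 this held in 2, 4, 3 and 2 lists. A promoter of CDH18 beyond the edge had a peak in all 6 lists, with a height of up to 19.

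In the stretch 6 regions (0.191%) were called in all 3 silenced and no control library, against 0.130% in the genome, and 7 (0.223%) in all 3 control and no silenced library, against 0.200%. The silenced-only regions with the greatest lowest height were chr5:25030832-25031508, 386 kb from CDH10 (heights 7, 4 and 4), and chr5:28301695-28302019 (5, 4 and 7). The other 4 shared a lowest height of 3, and of these chr5:21495275-21495638 in GUSBP1 (3, 4 and 5) had the greatest median. A peak of a control list lay within 1.5 kb of each of these 3 regions. The tallest control-only region was chr5:28628799-28629099, with heights of 13, 18 and 10, and a peak of a silenced list lay 0.879 kb away. By lowest height the next was chr5:25888142-25888497 (5, 4 and 5). The lowest height of chr5:22097095-22097630 in CDH12 (5, 4 and 3) was shared by other control-only regions, one of them chr5:29351492-29351757 (4, 5 and 3). In the list where each was weakest, the FDR was 0.244 for chr5:22097095-22097630 and 0.0964 for chr5:21495275-21495638. For chr5:28628799-28629099 it was 0.000261. With a height of at least 4, 2 regions were silenced-only (0.195%, against 0.0959% in the genome) and 3 control-only (0.292%, against 0.513%).

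**Figure D5:**
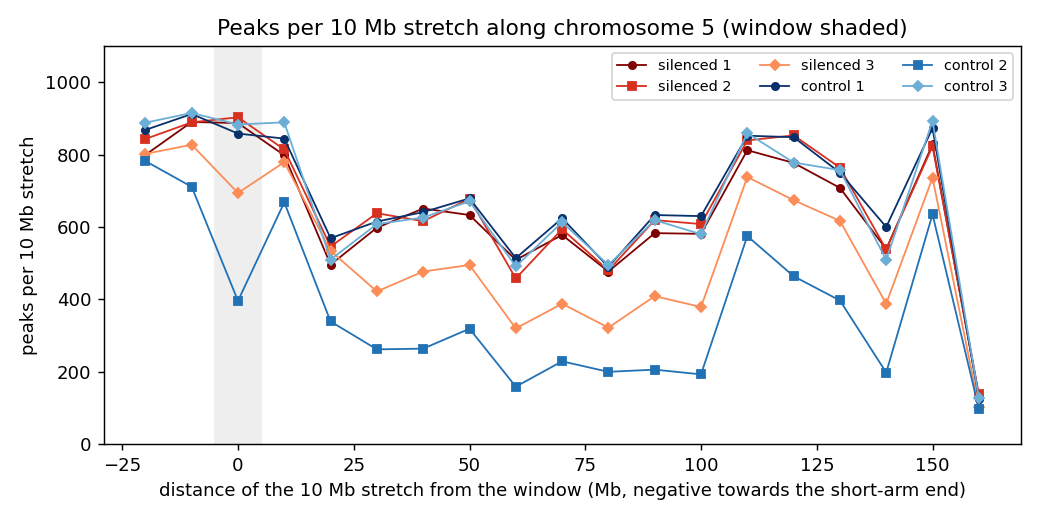
Peaks per 10 Mb stretch of chromosome 5 in each library (y axis), against the distance of the stretch from the one described here (shaded, at 0), the last point being the shorter piece at the chromosome end. In silenced 1 and 2 and control 1 and 3 the shaded stretch is about as high as its neighbours, and control 2 dips there from 711 before to 396.

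Set against the rest of the genome, the crowding stood out beside the lack of genes. Among 290 full stretches of 10 Mb with any peak, leaving out the shorter pieces at chromosome ends, it ranked 10, 10 and 28 by number of peaks in silenced libraries 1, 2 and 3 and 26, 78 and 21 in control libraries 1, 2 and 3. The other 7 full stretches with at most 10 protein-coding genes held at most 197, 220 and 131 peaks in the silenced and 225, 67 and 210 in the control libraries. Some of these hold centromeres or short arms, but stretches on chromosome arms were among them, such as 60 to 70 Mb of chromosome 13 with 49 to 211 peaks. At a limit of 20 coding genes, chosen after seeing the data, the 24 other full stretches held at most 494, 492 and 334 peaks in the silenced and 552, 200 and 563 in the control libraries, still below the stretch in each library. The neighbour before the stretch (36 coding genes) had 890, 889 and 827 peaks in silenced and 912, 711 and 915 in control libraries. The neighbour after it (45 coding genes) had 798, 814 and 779 against 844, 668 and 889. The 14 full stretches further along chromosome 5 had medians of 590.5, 617.5 and 449.5 against 631.5, 263 and 616. Of the stretch's peaks, pooled over the lists, 46.4% sat at the library background, where the 7 gene-poor stretches had 55.9% to 93.1%. By library this share was 11.7% in silenced 3, 15.7% in control 2 and 48.6% to 66.6% in the others. Silenced 3 and control 2 were also low in their whole lists (19.9% and 14.6%), so the pooled values depend on which libraries gave the peaks. The copy number of this arm was not analysed here. At the edges, the first region inside had a median height of 3 in 2 lists and the last region before it a height of 2 in 1 list. The last region inside had a height of 2 in 1 list and the first after it a height of 3 in 1 list.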

How the data were processed

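Per the submitters' processing notes, Trimmomatic 0.36, Bowtie2 2.2.6, Picard 2.8.2, MACS2 2.1.1 and bedtools 2.25.0 were used with the build GRCh38; the notes give no roles or settings. Per the labels' protocol, 10000 to 50000 cells went into a library, which was read as pairs of 150 bases. The authors deposited one peak list per library with, per the file headers, the fold enrichment as a ratio, a p-value, an FDR, the interval length and the pileup signal (here the height). The largest p-value in the lists was 0.00987, and some of the peaks named here had an FDR as high as 0.541. No read counts were used here, and depth is unknown.

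Peaks of all 6 lists were merged at an overlap of at least 1 bp. Genes and promoter sequences came from RefSeq tables of GRCh38.p14, and no sequence was read at the peaks. Values per library were compared by two-sided exact permutation tests, adjusted by Benjamini-Hochberg over 7 tests. limma 3.58.1 (R 4.3.3) was fitted over the whole genome to log2(peaks per 1000 list peaks + 0.01) of 500 kb steps with at least 5 peaks, and to normal scores of the fold-enrichment rank of regions called in all 6 lists. The threshold was an adjusted p of 0.05. The limma procedures were tested on simulated data, where they missed the smaller planted changes and found only part of the larger ones. A step or region that was not called may therefore still differ.

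Named were all protein-coding genes, other genes holding a region called in at least 5 lists, the 6 tallest regions called in all 6 lists, up to 3 regions per direction called in one group only, the regions nearest the ends of coding genes, and the 3 richest, 3 poorest and 3 lowest-p steps. PURPL and GUSBP1 starts were added after their values were seen. The members and lists were chosen with earlier results of these data known. Alternatives were a height of at least 4, an FDR of at most 1e-05, equal list lengths, each library left out, replicate numbers as a block, other step sizes, offsets, filters and ranks, a narrower window and 500 bp midpoint bins.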

Additional observations from a re-analysis of the deposited data

How the results depend on the processing

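No alternative gave a step or shared region that passed the test. Differences below are silenced minus control. At a height of at least 4, peaks (−63), their share (−0.0293 percentage points), covered length (−17.0 kb), mean length (2.40 bp), relative background (0.160) and step 14 (log2 −0.54) reversed sign. At an FDR of at most 1e-05 the same held for peaks (−13), share (−0.0110 percentage points), covered length (−5.52 kb), relative background (0.113) and the Jaccard contrast (0.00729), and with lists of equal length for covered length (−0.513 kb) and step 14 (log2 −0.10). The cause was not tested, and no share could be taken of peaks of at least 4 among such peaks. Steps 6, 7 and 14 have no value at 250 kb or 1 Mb.

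Leaving out each library in turn, the range was −42.5 to 201 for peaks, −17.9 to 41.1 kb for covered length, −0.201 to 0.0706 for relative background and −0.0115 to 0.00488 for the Jaccard contrast; peaks (−42.5), covered length (−17.9 kb) and background (0.0706) reversed without control 2, and the Jaccard contrast without silenced 1 (0.000978), 2 (0.00488) or 3 (0.00346). Silenced-only regions ranged from 9 (0.334%, genome 0.299%) to 52 (1.87%, genome 1.23%) and control-only regions from 9 (0.324%, genome 0.333%) to 46 (1.52%, genome 1.37%), since a call then needs fewer lists. Without both control 2 and silenced 3, added after seeing the data, they were 60 (2.26%, genome 1.54%) and 55 (2.07%, genome 1.84%).

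The number of regions fell to 1028 at a height of at least 4, 105 at an FDR of at most 1e-05 and 1399 with equal lists, and regions in all 6 lists to 32 at that FDR. Silenced-only regions were 2, 0 and 3, and control-only regions 3, 1 and 6, in these settings, against 188, 50 and 309 silenced-only and 1005, 508 and 875 control-only regions among 196070, 50350 and 248703 in the genome.

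Rank score differences of tall regions turned sign at region 27217450 (−0.019 ranked by p-value, −0.074 by height), at region 20972376 (−0.163 without silenced 3, −0.184 without control 1, at most 0.176), at region 28403730 (−0.105 by p-value, −0.106 by height, −0.053 without silenced 3, −0.038 without control 2, at most 0.084), at region 21459159 (0.00663 without silenced 3, −0.322 at the lowest) and at region 28648088 (−0.011 by p-value, −0.027 by height, −0.129 without silenced 1, −0.165 without control 2, at most 0.123).

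With the replicate number as a block, 0 of 20 steps and 0 of 85 shared regions were called, and the sign-flip test of the share gave an exact p = 0.25, the smallest it can give. Between libraries of equal number, deviations from the group mean correlated at −0.348 to 0.269 over steps. Deviations within a group cancel out, and steps are not independent replicates. Whether equal numbers were handled together therefore cannot be told from these values.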
